A study of Mus musculus with 28 samples.

Results

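Glucocorticoid receptor signalling and metallothionein genes were examined in mouse ear skin, as a set of 10 genes. They were chosen by their known roles, with earlier results of these data known. The set holds the receptor gene Nr3c1, the corticosteroid-activating enzyme Hsd11b1, the receptor targets Tsc22d3, Fkbp5, Sgk1 and Zbtb16, the metallothioneins Mt1 and Mt2, and the zinc transporters Slc30a1 and Slc39a14. All 10 were found among the 55414 genes counted, and all 10 passed the low-count filter that left 18991 genes for testing. The samples were ear biopsies of 28 female C57BL/6J mice, aged 6 to 8 weeks, taken 4 hours after the challenge. The TPA+RGRN-305 group (n = 10) received the HSP90 inhibitor RGRN-305 (1 mg per ear) and then the phorbol ester TPA (2.5 µg per ear), which activates protein kinase C and inflames the skin. The TPA group (n = 10) received acetone before TPA, the RGRN-305 group (n = 4) received RGRN-305 before acetone, and the vehicle group (n = 4) received acetone alone. Each mouse gave 1 library. The mice of the study came from 2 independent experiments, and the sources used here do not say which mouse belonged to which, so no experiment term was fitted and a difference between experiments cannot be told apart from the spread between mice.

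The glucocorticoid receptor is a transcription factor that is held by HSP90 and its co-chaperones in the form that binds hormone, and that moves to the nucleus after binding to switch on genes such as Tsc22d3 and Fkbp5. In skin, glucocorticoids are made and regenerated locally and are applied as drugs against inflammation. Metallothioneins are small, cysteine-rich proteins that bind zinc and copper, and their genes respond to zinc through the transcription factor MTF1, to glucocorticoids and to inflammation. Zinc enters the cytosol through SLC39 transporters and leaves it through SLC30 transporters.

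The promoters below are shown because they hold the letters that MTF1 or the receptor is known to bind. They are RefSeq windows of 300 bases, from 250 bases before to 50 bases after a transcription start, taken from a table on GRCm38.p6 and placed on GRCm39 by an exact match that occurred once on the chromosome. Capitals mark metal response elements (TGCACNC or TGCGCNC on either strand) in Mt1, Mt2 and Slc30a1, and a glucocorticoid response element (AGAACA and TGTTCT, 3 bases apart) in Sgk1. The Mt1 window lies at chr8:94905467-94905766, the Mt2 window at chr8:94898996-94899295, the Slc30a1 window at chr1:191638643-191638942 and the Sgk1 window, which belongs to start 5 of the 6 listed for that gene, at chr10:21869539-21869838, all on the plus strand.
Mt1: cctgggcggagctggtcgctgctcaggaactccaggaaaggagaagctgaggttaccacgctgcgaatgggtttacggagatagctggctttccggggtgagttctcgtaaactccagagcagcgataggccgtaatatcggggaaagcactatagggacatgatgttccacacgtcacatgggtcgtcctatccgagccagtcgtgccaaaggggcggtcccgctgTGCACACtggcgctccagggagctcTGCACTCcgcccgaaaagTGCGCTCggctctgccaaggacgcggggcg
Mt2: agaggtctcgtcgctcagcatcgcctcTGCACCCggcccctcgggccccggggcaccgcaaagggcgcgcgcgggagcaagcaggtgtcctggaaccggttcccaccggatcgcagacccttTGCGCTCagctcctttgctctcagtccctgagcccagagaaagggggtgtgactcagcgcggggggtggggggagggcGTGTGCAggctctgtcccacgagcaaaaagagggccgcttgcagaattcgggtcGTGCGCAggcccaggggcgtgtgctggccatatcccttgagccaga
Slc30a1: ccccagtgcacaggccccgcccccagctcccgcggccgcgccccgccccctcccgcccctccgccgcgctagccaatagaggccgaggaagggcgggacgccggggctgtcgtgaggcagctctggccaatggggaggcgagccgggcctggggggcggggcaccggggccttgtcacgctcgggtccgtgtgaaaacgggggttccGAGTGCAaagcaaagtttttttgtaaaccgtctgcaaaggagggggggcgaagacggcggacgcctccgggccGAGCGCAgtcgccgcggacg
Sgk1: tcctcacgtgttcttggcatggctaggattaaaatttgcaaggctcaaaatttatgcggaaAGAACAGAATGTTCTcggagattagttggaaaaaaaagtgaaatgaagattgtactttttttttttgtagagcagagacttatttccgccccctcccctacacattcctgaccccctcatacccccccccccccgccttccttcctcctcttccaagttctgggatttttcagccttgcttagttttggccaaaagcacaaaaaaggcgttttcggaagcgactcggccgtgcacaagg
The Mt1 window held 3 metal response elements, the Mt2 window 4 and the Slc30a1 window 2. Of the 32851 windows in the table, 25.7% held at least 1 such match, 7.11% at least 2 and 1.97% at least 3. The Sgk1 element is rare in this table, with the same pattern in 3 of 32851 windows (0.00913%). A looser pattern, GNACA and TGTNC 3 bases apart, was found in 0.475% of windows and matched the Mt1 window once, 94 bases before the start, where it is left in lower case. Windows were found for 7 of the 10 genes, in all 14 windows, and not for Nr3c1, Zbtb16 or Slc39a14. Besides those printed, Hsd11b1 and start 6 of Sgk1 held 1 metal response element each, while the windows of Tsc22d3 and Fkbp5 held none of these patterns. A match describes letters in the window and is not evidence of binding.

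Library totals lay between 16751780 and 24716640 counts. Levels are given as CPM, counts scaled to a common library size after TMM normalization. Where genes are compared with each other they are given as RPKM, the same per kilobase of the gene length that came with the counts. Keratinocyte markers summed to between 23303 and 29204 CPM in every library, so the biopsies hold epidermis as labelled. The 7 neutrophil markers summed to between 10.6 and 49.5 CPM in TPA+RGRN-305 mice, between 207 and 331 CPM in TPA mice, between 6.28 and 14.2 CPM in RGRN-305 mice and between 6.18 and 12.8 CPM in vehicle mice, with Ly6g near 0 (mean of 0.363 CPM in TPA mice). The library of TPA+RGRN-305 replicate 6 had 0.538 CPM of Xist, the X-inactivation transcript of female cells, against 396 to 742 CPM in the others. Hair follicle keratins summed to 13.8 to 103.4 CPM in 7 libraries (4 TPA+RGRN-305, 1 TPA and 2 RGRN-305 mice) against at most 3.68 CPM in the others. Each result that changed its call without these libraries is given with and without them.

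TPA moved the metallothioneins and the importer Slc39a14 upward and the receptor and part of its targets downward, and with RGRN-305 before TPA most of these levels were nearer those of vehicle mice. Differences are log2 fold changes from the quasi-likelihood test of edgeR over all 28 libraries, and a gene was called at an adjusted p under 0.05 (Benjamini-Hochberg over the 18991 genes). In TPA versus vehicle, 3 of the 10 genes were higher, 4 were lower and 3 did not pass, against 31.6% of all tested genes higher and 34.4% lower (66.0% in all). In TPA+RGRN-305 versus TPA, 4 were higher, 4 were lower and 2 did not pass, where 33.0% of all genes were higher and 32.6% lower (65.6% in all). In TPA+RGRN-305 versus vehicle, 3 were higher and 2 were lower and 5 did not pass, where 11.7% of all genes were higher and 10.3% lower (22.0% in all). In RGRN-305 versus vehicle, 0 of 10 passed, as did 0% of all genes. The share of the 10 genes called was near that of all genes in TPA versus vehicle and in TPA+RGRN-305 versus TPA.

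**Figure D1:**
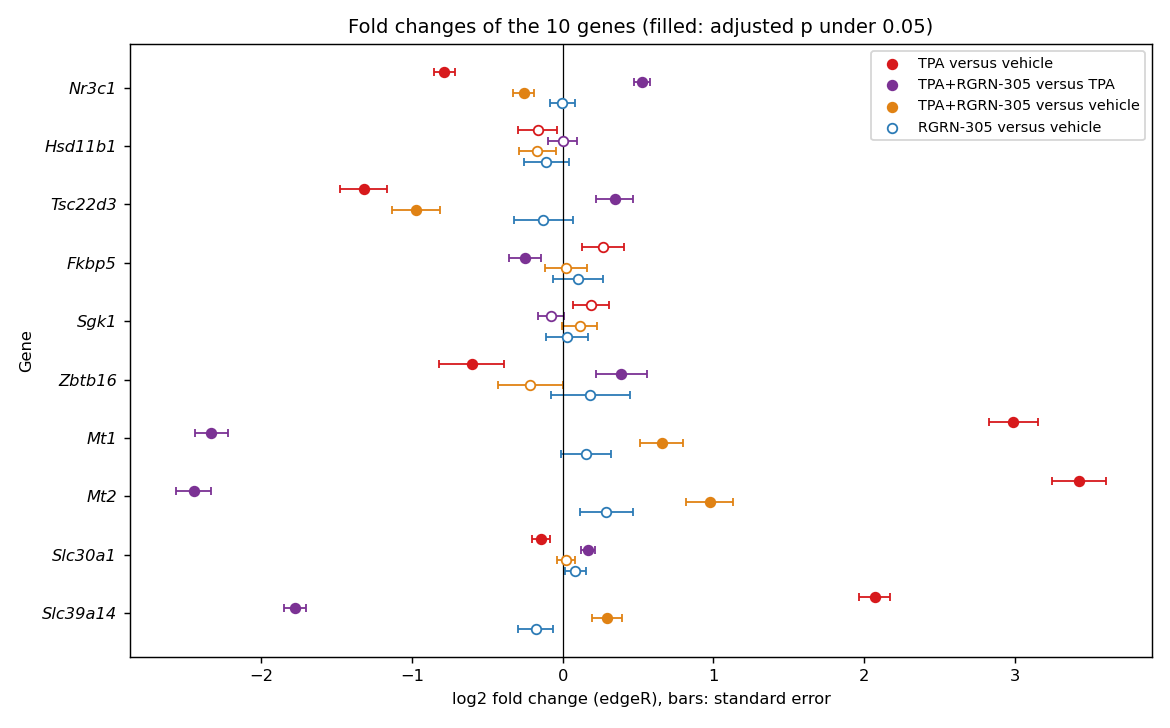
Log2 fold changes (x axis, edgeR) of the 10 genes (rows) in 4 comparisons, with bars for the standard error and filled points for an adjusted p under 0.05. Mt1, Mt2 and Slc39a14 lie at 2.07 or above in TPA versus vehicle and at -1.78 or below in TPA+RGRN-305 versus TPA, and the open points of RGRN-305 versus vehicle all lie between -0.18 and 0.29.

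Nr3c1 encodes the glucocorticoid receptor (ENSMUSG00000024431, GRCm39 chromosome 18, 39543598 to 39652474, minus strand). Its level lay between 109 and 142 CPM (median 129) in TPA+RGRN-305 mice, between 80.0 and 103.6 CPM (median 87.3) in TPA mice, at 177, 139, 148 and 143 CPM in RGRN-305 mice, and at 152, 159, 151 and 147 CPM in vehicle mice. The TPA mice were below every mouse of the other 3 groups, and the TPA+RGRN-305 mice lay between the TPA and the vehicle mice with no overlap on either side. The receptor gene fell by 0.78 on the log2 scale in TPA versus vehicle (SE 0.07, edgeR adjusted p = 7.18e-12), a fold of 0.580. Against TPA mice, TPA+RGRN-305 mice were higher by 0.53 (SE 0.05, edgeR adjusted p = 2.51e-10), and in TPA+RGRN-305 versus vehicle it was still lower, at -0.26 (SE 0.07, edgeR adjusted p = 0.00626). The change under TPA differed with and without RGRN-305, with an interaction of 0.53 (SE 0.10, edgeR adjusted p = 4.09e-05). These are whole biopsies, in which fewer cells that express a gene and less of its RNA per cell cannot be told apart. The sum of the 4 mast cell markers was also lower in TPA mice than in vehicle mice. It was 177 to 232 CPM (median 216) in TPA+RGRN-305 mice and 144 to 205 CPM (median 156) in TPA mice. In RGRN-305 mice it was 161 to 236 CPM, and in vehicle mice 213 to 224 CPM (median 214). The medians of this sum in TPA+RGRN-305 and vehicle mice were close. The part of mast cells in these results was not tested.

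Expressed as a share of the TPA change on the log2 scale, the TPA+RGRN-305 mice kept 33.4% ± 15.5 of the fall of Nr3c1 (SD, n = 10), from 13.2% to 60.3%. All 10 mice thus lay between the vehicle mean and the TPA mean. The other genes with clear changes kept 76.5% ± 32.0 (Tsc22d3), 21.6% ± 10.2 (Mt1), 27.99% ± 10.1 (Mt2) and 13.98% ± 8.10 (Slc39a14). In these percentages 0 is the vehicle mean and 100 the TPA mean.

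Hsd11b1 encodes the enzyme that regenerates active corticosterone from its inert form (ENSMUSG00000016194, chromosome 1, 192903918 to 192946489, minus strand). Its counts were low, at 118 to 263 per library in TPA+RGRN-305 mice, and its level was 5.68 to 10.9 CPM (median 8.59) in TPA+RGRN-305 mice, 7.07 to 10.8 CPM (median 8.43) in TPA mice, 10.1, 8.23, 8.11 and 9.04 CPM in RGRN-305 mice, and 11.8, 8.28, 7.72 and 10.3 CPM in vehicle mice. All 4 groups overlapped. Neither TPA versus vehicle (-0.17, SE 0.13, edgeR adjusted p = 0.251) nor TPA+RGRN-305 versus TPA (-0.00022, SE 0.10, edgeR adjusted p = 0.998) passed the test. Scaled by library totals alone, without TMM, both passed (-0.45 with an edgeR adjusted p of 0.00308, and 0.26 with 0.0241), a setting that shifted the median gene as well (by -0.29 for TPA versus vehicle, by 0.26 for TPA+RGRN-305 versus TPA).

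The receptor targets did not move as a block. Tsc22d3 encodes GILZ, a glucocorticoid-induced leucine zipper protein that restrains inflammation (ENSMUSG00000031431, chromosome X, 139440091 to 139501408, minus strand). It was present at 131 to 269 CPM (median 207) in TPA+RGRN-305 mice, at 134 to 176 CPM (median 167) in TPA mice, at 341, 330, 460 and 351 CPM in RGRN-305 mice, and at 474, 253, 484 and 409 CPM in vehicle mice. Every TPA mouse was below every vehicle mouse, whereas the TPA+RGRN-305 mice were widely spread, with 6 of 10 above all TPA mice and 2 of 10 below all of them. Tsc22d3 fell by 1.32 in TPA versus vehicle (SE 0.16, edgeR adjusted p = 6.38e-09), was higher by 0.35 in TPA+RGRN-305 versus TPA (SE 0.12, edgeR adjusted p = 0.0152) and stayed lower in TPA+RGRN-305 versus vehicle (-0.97, SE 0.16, edgeR adjusted p = 3.31e-05). Only 3.52% of all genes had a larger absolute change than Tsc22d3 in that last comparison, against 13.3% in TPA versus vehicle. The difference from TPA was lost without the 7 libraries with hair follicle keratins, at 0.30 (edgeR adjusted p = 0.0537). The TPA+RGRN-305 mouse low in Xist was the lowest of its group for this X-linked gene, at 131 CPM, and another mouse of the group stood at 132 CPM. The interaction did not pass (0.47, SE 0.23, edgeR adjusted p = 0.0872), but did without the low-Xist library (0.53, edgeR adjusted p = 0.0401), without vehicle replicate 2 (0.64, edgeR adjusted p = 0.0167), without RGRN-305 replicate 3 (0.58, edgeR adjusted p = 0.0448) and with library totals alone (0.76, edgeR adjusted p = 0.00594).

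Zbtb16 encodes PLZF, a zinc finger repressor that glucocorticoids induce in many cells (ENSMUSG00000066687, chromosome 9, 48563141 to 48748664, minus strand). Its level was 28.2 to 104.5 CPM (median 48.5) in TPA+RGRN-305 mice, 28.3 to 44.7 CPM (median 41.8) in TPA mice, 39.3, 46.3, 111.9 and 72.3 CPM in RGRN-305 mice, and 71.0, 45.1, 59.1 and 62.6 CPM in vehicle mice. All TPA mice were below all vehicle mice, by a small gap, while the 2 groups given RGRN-305 each held 1 mouse above 100 CPM. Zbtb16 fell by 0.60 in TPA versus vehicle (SE 0.22, edgeR adjusted p = 0.0148) and was higher by 0.39 in TPA+RGRN-305 versus TPA (SE 0.17, edgeR adjusted p = 0.0427). It did not pass in TPA+RGRN-305 versus vehicle (-0.21, SE 0.22, edgeR adjusted p = 0.526). The first call was lost without vehicle replicate 1 (-0.51, edgeR adjusted p = 0.0671) and the second with DESeq2 (0.39, adjusted p = 0.067).

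Fkbp5 encodes FKBP51, an HSP90 co-chaperone that lowers the affinity of the receptor for its hormone (ENSMUSG00000024222, chromosome 17, 28618058 to 28737521, minus strand). It ranged over 129 to 232 CPM (median 185) in TPA+RGRN-305 mice and 160 to 253 CPM (median 221) in TPA mice, and stood at 155, 158, 255 and 195 CPM in RGRN-305 mice and at 206, 139, 181 and 186 CPM in vehicle mice. The groups overlapped, with 6 of 10 TPA mice above all vehicle mice. Fkbp5 did not pass in TPA versus vehicle (0.27, SE 0.14, edgeR adjusted p = 0.093) and was lower by 0.25 in TPA+RGRN-305 versus TPA (-0.25, SE 0.11, edgeR adjusted p = 0.0379). That call was lost without the low-Xist library (-0.20, edgeR adjusted p = 0.0813), without the low-count filter (-0.22, edgeR adjusted p = 0.0686), without the 4 libraries highest in hair keratins (-0.18, edgeR adjusted p = 0.153), without the 7 hair keratin libraries (-0.16, edgeR adjusted p = 0.187) and with library totals alone (0.0073, edgeR adjusted p = 0.95). In TPA versus vehicle the gene passed without the 7 hair keratin libraries (0.28, edgeR adjusted p = 0.0466) and when only those 2 groups were fitted (0.28, edgeR adjusted p = 0.0348).

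Sgk1 encodes a serum- and glucocorticoid-regulated kinase that acts on ion channels and transporters (ENSMUSG00000019970, chromosome 10, 21758083 to 21875802, plus strand). It measured 147 to 241 CPM (median 198) in TPA+RGRN-305 mice, 182 to 248 CPM (median 199.8) in TPA mice, 180, 183, 206 and 173 CPM in RGRN-305 mice, and 199.9, 129.7, 234.8 and 162.5 CPM in vehicle mice. All groups overlapped for this gene, whose promoter window holds the receptor element printed above. No comparison passed, with 0.19 in TPA versus vehicle (SE 0.12, edgeR adjusted p = 0.157) and -0.08 in TPA+RGRN-305 versus TPA (SE 0.09, edgeR adjusted p = 0.457). Without vehicle replicate 3, its highest vehicle mouse, the first of these passed (0.34, edgeR adjusted p = 0.0171).

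**Figure D2:**
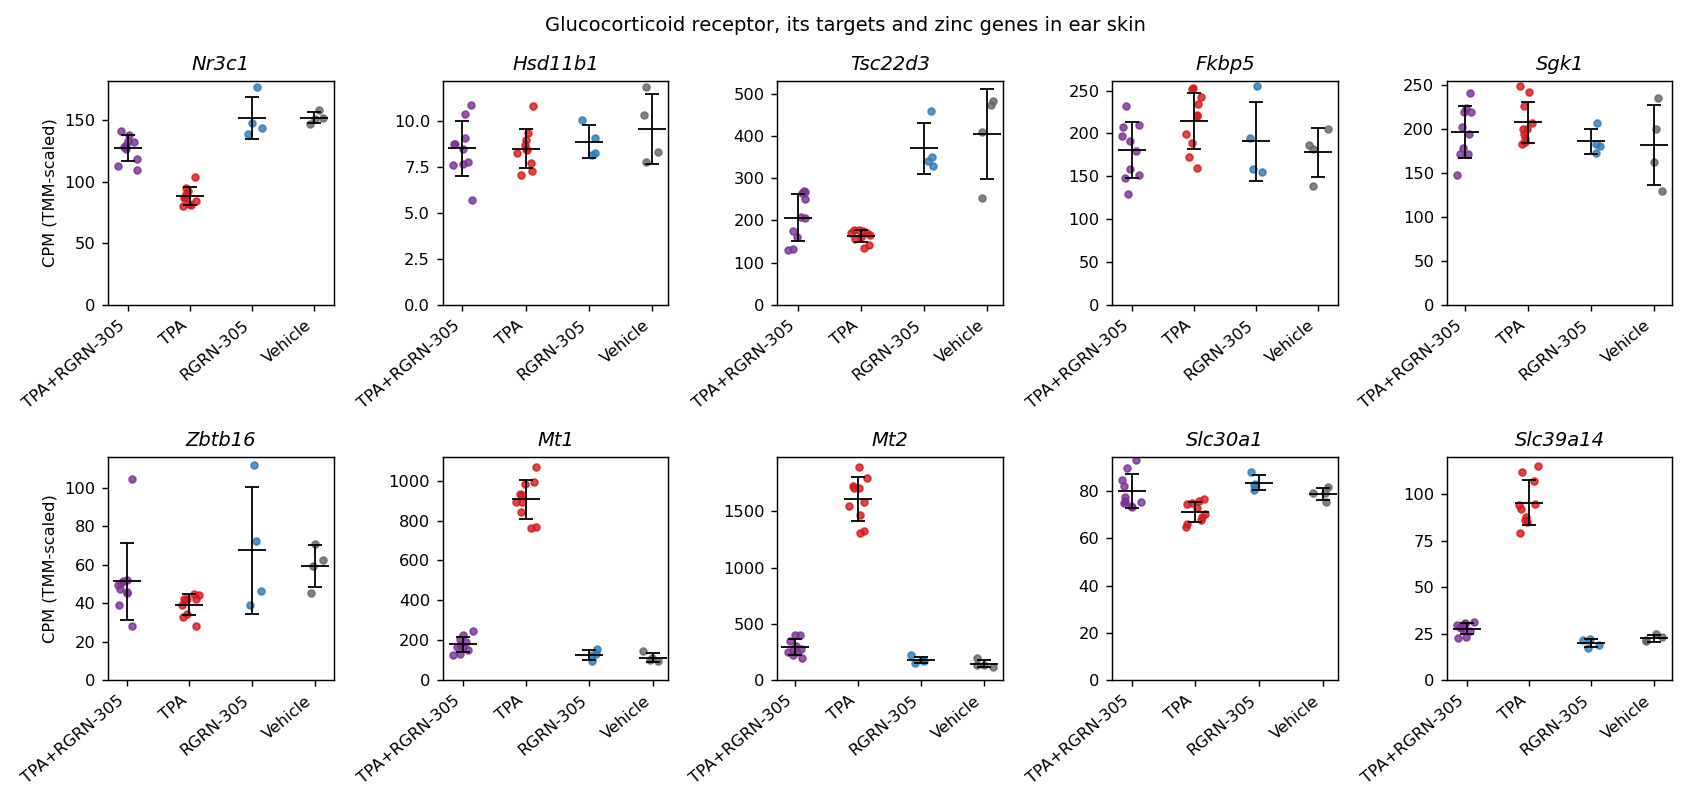
CPM after TMM scaling (y axis, linear, from 0) of the 10 genes, 1 panel each, with a point per mouse in the TPA+RGRN-305 (n = 10), TPA (n = 10), RGRN-305 (n = 4) and vehicle (n = 4) groups, and black bars for the mean and SD. Mt1, Mt2 and Slc39a14 stand apart in the TPA mice, Nr3c1 and Tsc22d3 are low there, and Hsd11b1, Fkbp5 and Sgk1 overlap in all groups.

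The metallothioneins changed most of the 10 genes in TPA versus vehicle and in TPA+RGRN-305 versus TPA. Mt1 (ENSMUSG00000031765, chromosome 8, 94905710 to 94906955, plus strand) and Mt2 (ENSMUSG00000031762, chromosome 8, 94898819 to 94900207, plus strand) encode the widely expressed metallothioneins of the mouse and lie next to each other, 5502 bases apart. Mt1 reached 129 to 245 CPM (median 173) in TPA+RGRN-305 mice, against 764 to 1070.3 CPM (median 909) in TPA mice. In RGRN-305 mice it stood at 157, 94.7, 132 and 124 CPM, and in vehicle mice at 102, 96.7, 147 and 110.0 CPM. No TPA mouse overlapped any other group, and 8 of 10 TPA+RGRN-305 mice were above all vehicle mice. Mt1 was 7.95-fold higher in TPA versus vehicle (log2 2.99, SE 0.16, edgeR adjusted p = 1.98e-16), and 0.199-fold in TPA+RGRN-305 versus TPA (log2 -2.33, SE 0.11, edgeR adjusted p = 3.42e-18). It remained higher in TPA+RGRN-305 versus vehicle by 0.66 (SE 0.14, edgeR adjusted p = 0.00105).

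Mt2 followed the same order of groups. It reached 197 to 406 CPM (median 274) in TPA+RGRN-305 mice, against 1312 to 1896 CPM (median 1642) in TPA mice. In RGRN-305 mice it stood at 222, 153, 175 and 182 CPM, and in vehicle mice at 138, 122, 197 and 140.5 CPM. The TPA+RGRN-305 mice lay below every TPA mouse and above every vehicle mouse, the closest pair being 197.2 CPM in a TPA+RGRN-305 mouse and 196.8 CPM in a vehicle mouse. Mt2 was 10.8-fold higher in TPA versus vehicle (log2 3.43, SE 0.18, edgeR adjusted p = 8.62e-17), 0.183-fold in TPA+RGRN-305 versus TPA (log2 -2.45, SE 0.12, edgeR adjusted p = 5.94e-18) and 1.97-fold in TPA+RGRN-305 versus vehicle (log2 0.98, SE 0.16, edgeR adjusted p = 2.82e-05). In TPA versus vehicle, 1.6% of all genes had a larger absolute change than Mt2 and 2.25% a larger one than Mt1. The TPA effect differed with and without RGRN-305 for both, with interactions of -2.49 for Mt1 (SE 0.20, edgeR adjusted p = 1.54e-11) and -2.74 for Mt2 (SE 0.21, edgeR adjusted p = 1.04e-11).

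On the RPKM scale, Mt2 was above Mt1 in every group, and the balance of the pair moved with treatment. The length used for Mt1, 1246 bases, is its whole genomic span, whereas that of Mt2 is 588 bases. The size of the ratio depends on these lengths, while its differences between groups do not. In CPM, vehicle mice averaged 149 for Mt2 and 114 for Mt1. The ratio of Mt2 to Mt1 RPKM, which no library scaling can change, was 3.45 ± 0.170 in TPA+RGRN-305 mice, 3.75 ± 0.148 in TPA mice, 3.08 ± 0.254 in RGRN-305 mice and 2.77 ± 0.103 in vehicle mice (SD, n = 10, 10, 4 and 4). It ran from 3.51 to 4.04 in TPA mice and from 2.67 to 2.89 in vehicle mice, which do not overlap. It ran from 3.20 to 3.76 in TPA+RGRN-305 mice, above all vehicle mice and overlapping the TPA mice. In RGRN-305 mice it ran from 2.81 to 3.42, which overlaps both the vehicle and the TPA+RGRN-305 mice. The ratio was not tested. In the gene annotation used here for names and positions, an antisense RNA, Gm45774, shares 783 exon bases with Mt2. That is more than the 588 bases counted for Mt2, so the exons counted differ from that annotation. Where the counted exons are shared, its reads cannot be told apart from those of Mt2 unless the counting used strand. The strand setting is not given in the sources used here.

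Within groups the pair moved together from mouse to mouse. Among 90 pairs of the 10 genes tested (45 in each group of 10 mice), Mt1 with Mt2 was the only pair past an adjusted p of 0.05 in either group. Pearson's r was 0.984 in TPA+RGRN-305 mice (Spearman's rho 0.976, permutation p = 1e-05, the smallest that the permutations can give, adjusted p = 0.0009) and 0.952 in TPA mice (rho 0.915, permutation p = 6e-05, adjusted p = 0.0027). For rho the permutation p was 3e-05 (adjusted p = 0.0027) in TPA+RGRN-305 mice and 0.00042 (adjusted p = 0.0189) in TPA mice. Without the 2 mice farthest from the median of Mt1, r was 0.972 in TPA+RGRN-305 mice and 0.869 in TPA mice.

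**Figure D3:**
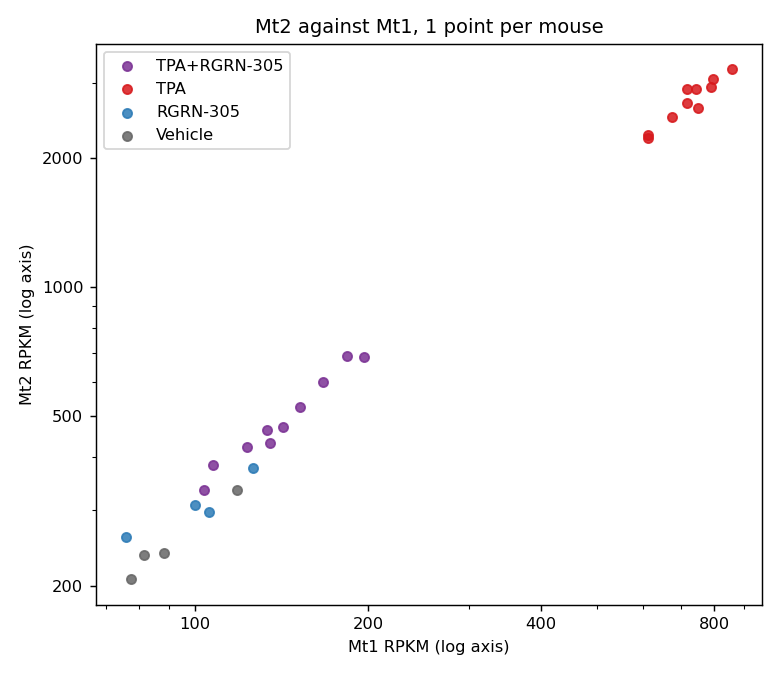
RPKM of Mt2 (y axis, log) against RPKM of Mt1 (x axis, log), 1 point per mouse, coloured by group. The TPA mice form a separate cloud, at a mean of 727 RPKM of Mt1 and 2732 RPKM of Mt2, and the TPA+RGRN-305 mice (means of 144 and 500.3 RPKM) continue upward from the vehicle mice (means of 91.4 and 254 RPKM).

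The 2 zinc transporters went apart. Slc39a14 encodes ZIP14, which imports zinc, iron and manganese (ENSMUSG00000022094, chromosome 14, 70540678 to 70588914, minus strand). It was found at 22.5 to 31.4 CPM (median 28.4) in TPA+RGRN-305 mice, at 79.3 to 115 CPM (median 92.8) in TPA mice, at 17.2, 19.1, 22.1 and 21.5 CPM in RGRN-305 mice, and at 23.3, 25.1, 20.9 and 21.5 CPM in vehicle mice. Every TPA mouse was above every mouse of the other groups by a wide gap, and 8 of 10 TPA+RGRN-305 mice were above all vehicle mice. Slc39a14 was 4.20-fold higher in TPA versus vehicle (log2 2.07, SE 0.10, edgeR adjusted p = 2.79e-17) and 0.292-fold in TPA+RGRN-305 versus TPA (log2 -1.78, SE 0.07, edgeR adjusted p = 1.53e-19), with an interaction of -1.60 (SE 0.14, edgeR adjusted p = 5.51e-11). The small remainder in TPA+RGRN-305 versus vehicle (0.29, SE 0.10, edgeR adjusted p = 0.0278) was lost without vehicle replicate 1, 3 or 4 (edgeR adjusted p between 0.0525 and 0.0996). The summed neutrophil markers rise and fall with Slc39a14, Mt1 and Mt2 across the groups, as given above. The 4 chondrocyte markers summed to 209 to 392 CPM in TPA+RGRN-305 mice, 322 to 473 CPM in TPA mice, 258 to 277 CPM in RGRN-305 mice and 259 to 301 CPM in vehicle mice. This sum mostly followed Acan, with means of 322 CPM in TPA mice and 210.5 CPM in vehicle mice. Col2a1 (30.5 against 29.5 CPM), Matn3 (1.84 against 2.07 CPM) and Cnmd (35.8 against 37.7 CPM) hardly rose or were lower in TPA mice. The part of either cell type in these results was not tested.

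Slc30a1 encodes ZnT1, the zinc exporter of the plasma membrane and, like the metallothioneins, a known MTF1 target (ENSMUSG00000037434, chromosome 1, 191638808 to 191645361, plus strand). It lay at 73.4 to 93.1 CPM (median 76.7) in TPA+RGRN-305 mice, at 65.0 to 76.6 CPM (median 71.5) in TPA mice, at 82.8, 80.4, 83.0 and 88.2 CPM in RGRN-305 mice, and at 81.8, 75.3, 79.1 and 79.0 CPM in vehicle mice. In 8 of 10 TPA mice it was below all vehicle mice, unlike the metallothioneins, and its window holds 2 metal response elements, as printed above. Slc30a1 was higher by 0.17 in TPA+RGRN-305 versus TPA (SE 0.05, edgeR adjusted p = 0.00166) and passed narrowly as lower in TPA versus vehicle (-0.15, SE 0.06, edgeR adjusted p = 0.0323). The call in TPA versus vehicle was lost with RLE size factors (-0.13, edgeR adjusted p = 0.0599), with DESeq2 (-0.13, adjusted p = 0.0723), without the low-count filter (-0.15, edgeR adjusted p = 0.0549), and without vehicle replicate 1, 3 or 4 or RGRN-305 replicate 3 (edgeR adjusted p between 0.0523 and 0.0985). In the annotation used for names and positions, an antisense RNA, 1700034H15Rik, shares 468 exon bases with Slc30a1. Antisense RNAs share exon bases there also with Nr3c1, Fkbp5 and Sgk1.

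Groups that do not overlap were counted for the 10 genes. In TPA versus vehicle 6 of 10 did not overlap (Nr3c1, Tsc22d3 and Zbtb16 lower, Mt1, Mt2 and Slc39a14 higher), where 47.4% of all genes did not (23.8% higher and 23.6% lower). In TPA+RGRN-305 versus TPA 4 of 10 did not overlap (Nr3c1 higher, Mt1, Mt2 and Slc39a14 lower), where 27.2% of all genes did not (11.7% higher and 15.5% lower). In TPA+RGRN-305 versus vehicle the 2 genes Nr3c1 (lower) and Mt2 (higher) did not overlap, where 10.8% of all genes did not (6.59% higher and 4.20% lower). In RGRN-305 versus vehicle 0 of 10 were without overlap, where 5.17% of all genes were (2.37% higher and 2.80% lower). The change under TPA differed with and without RGRN-305 for 4 of 10 genes (Nr3c1, Mt1, Mt2 and Slc39a14), 1 in the positive and 3 in the negative direction, where 50.8% of all genes passed that test (25.9% positive and 25.0% negative).

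RGRN-305 without TPA gave no call among the 10 genes. The largest difference was that of Mt2, at 0.29 (SE 0.18, edgeR adjusted p = 0.597), followed by Zbtb16 at 0.18 (SE 0.26, edgeR adjusted p = 0.834) and Slc39a14 at -0.18 (SE 0.12, edgeR adjusted p = 0.619). For Nr3c1 the difference was -0.0026 (SE 0.08, edgeR adjusted p = 0.994). None of the 10 had an unadjusted p under 0.05 (the smallest was 0.111), while 1811 of all genes did and DESeq2 called 19 genes, 0 of them among the 10. Without the 7 hair keratin libraries, which leaves 2 RGRN-305 mice, edgeR called 12 genes, again with 0 of the 10. With 4 mice a side, small changes of variable genes such as Tsc22d3 (SE 0.19) could not be seen.

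The order of the 10 genes by RPKM differed in part between vehicle and TPA mice, with Mt2 first in both, and was not tested. It depends on the gene lengths used, and that of Mt1 is its whole genomic span, which lowers its RPKM. In vehicle mice the order was Mt2 (254 ± 55.6 RPKM), Tsc22d3 (93.4 ± 24.6), Mt1 (91.4 ± 18.5), Sgk1 (37.1 ± 9.29), Nr3c1 (19.8 ± 0.616), Fkbp5 (18.8 ± 2.98), Slc30a1 (15.03 ± 0.504), Zbtb16 (11.3 ± 2.04), Hsd11b1 (2.24 ± 0.445) and Slc39a14 (2.15 ± 0.179), all as mean and SD of 4 mice. Tsc22d3 and Mt1, Nr3c1 and Fkbp5, and Hsd11b1 and Slc39a14 were neighbours within their SDs. In TPA mice Mt2 (2732 ± 332 RPKM) and Mt1 (727 ± 78.5) came first, then Sgk1 (42.3 ± 4.79), Tsc22d3 (37.4 ± 3.38), Fkbp5 (22.7 ± 3.49), Slc30a1 (13.6 ± 0.809), Nr3c1 (11.5 ± 0.947), Slc39a14 (9.03 ± 1.15), Zbtb16 (7.41 ± 1.03) and Hsd11b1 (2.00 ± 0.254), as mean and SD of 10 mice. The SD ranges of Sgk1 and Tsc22d3, and those of Slc39a14 and Zbtb16, overlapped in TPA mice. In TPA+RGRN-305 mice Mt2 (500.3 ± 122.6 RPKM) and Mt1 (144 ± 30.8) still led, ahead of Tsc22d3 (47.6 ± 12.7) and Sgk1 (40.1 ± 6.01), which were within their SDs of each other.

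Single mice stood at the ends of several of the 10 genes at once, as some mouse in a group of 4 must. These counts were not tested. In the RGRN-305 group replicate 3 was the highest of 4 for 5 genes (Tsc22d3, Fkbp5, Sgk1, Zbtb16 and Slc39a14). Replicate 1 of that group was the highest for 4 genes (Nr3c1, Hsd11b1, Mt1 and Mt2). Replicate 2 was the lowest for 5 genes (Nr3c1, Tsc22d3, Mt1, Mt2 and Slc30a1). In the vehicle group replicate 2 was the lowest of 4 for 7 genes (Tsc22d3, Fkbp5, Sgk1, Zbtb16, Mt1, Mt2 and Slc30a1). In the TPA+RGRN-305 group the low-Xist replicate 6 was the lowest of 10 for 4 genes (Tsc22d3, Fkbp5, Zbtb16 and Slc39a14), and replicate 8 was the highest for Fkbp5, Zbtb16 and Hsd11b1. RGRN-305 replicate 3 and TPA+RGRN-305 replicate 6 are also among the 7 libraries with hair follicle keratins, while TPA+RGRN-305 replicate 8 and vehicle replicate 2 are not.

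Related genes were taken from 6 lists by function, of which 86 of 95 genes could be tested. The lists, too, were chosen with earlier results of these data known. Of 29 other glucocorticoid-induced genes, 17 were higher and 8 lower in TPA versus vehicle and 4 did not pass, so that 86.2% were called against 66.0% of all genes (31.6% higher and 34.4% lower), with a median log2 fold change of 0.64 (all genes, -0.03). In TPA+RGRN-305 versus TPA 6 were higher and 18 lower, so that 82.8% were called against 65.6% of all genes (33.0% higher and 32.6% lower), with a median of -0.67 (all genes, 0.02), and with library totals alone 10 were higher. The 4 genes of the list that changed most under TPA all rose. They were Lcn2, an iron-siderophore binding protein of the acute phase (3.68, then -2.91 in TPA+RGRN-305 versus TPA), Zfp36, which promotes decay of cytokine mRNAs (3.51, then -2.01), Errfi1, an inhibitor of the EGF receptor (3.49, then -2.58), and Rgs2, a brake on G protein signalling (3.37, then -2.22), with edgeR adjusted p of at most 1.27e-11 for each. Zfp36 averaged 229 ± 81.6 CPM in TPA+RGRN-305 mice, 924 ± 85.1 CPM in TPA mice, 75.7 ± 14.4 CPM in RGRN-305 mice and 80.9 ± 53.5 CPM in vehicle mice. Many genes of this list are known to respond also to growth factors, stress or cytokines.

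Of the 8 genes of this list that were lower in TPA versus vehicle, 6 were higher in TPA+RGRN-305 versus TPA. Of all genes, 33.0% were higher in that second comparison, and the share among all genes lower under TPA was not computed. Both comparisons use the same TPA mice, so low values in them favour a rise in the second. The 6 genes are thus not set apart from other genes. All 8 are named after their values were seen. Ddit4 fell by 0.44 in TPA versus vehicle (edgeR adjusted p = 0.0165) and by a further 0.66 in TPA+RGRN-305 versus TPA (edgeR adjusted p = 3.16e-05). It stood at -1.10 in TPA+RGRN-305 versus vehicle (edgeR adjusted p = 6.49e-06). Mertk fell by 0.32 (edgeR adjusted p = 0.00564) and did not pass in TPA+RGRN-305 versus TPA (0.15, edgeR adjusted p = 0.1). Hif3a, a hypoxia-inducible factor subunit, fell by 2.07 in TPA versus vehicle (edgeR adjusted p = 5.88e-10) and was higher by 1.88 in TPA+RGRN-305 versus TPA (edgeR adjusted p = 7.66e-11). Txnip, a regulator of thioredoxin and glucose uptake, fell by 1.55 (edgeR adjusted p = 1.63e-10) and was higher by 0.37 (edgeR adjusted p = 0.00919). Glul, the glutamine synthetase, fell by 0.65 (edgeR adjusted p = 7.97e-07) and was higher by 0.25 (edgeR adjusted p = 0.00572). Klf15, a transcription factor of amino acid and glucose metabolism, fell by 0.39 (edgeR adjusted p = 0.00537) and was higher by 0.21 (edgeR adjusted p = 0.0487). Arrdc2, an arrestin-domain protein, fell by 0.86 (edgeR adjusted p = 8.36e-10) and was higher by 0.81 (edgeR adjusted p = 1.72e-11), and Sult1a1, a sulfotransferase, fell by 0.48 (edgeR adjusted p = 0.000205) and was higher by 0.32 (edgeR adjusted p = 0.00119). In TPA+RGRN-305 versus vehicle, Txnip (-1.18, edgeR adjusted p = 1.5e-06) and Glul (-0.40, edgeR adjusted p = 0.00364) were still lower, as Tsc22d3 was, while Hif3a (-0.19), Klf15 (-0.18), Arrdc2 (-0.05) and Sult1a1 (-0.16) did not pass (edgeR adjusted p between 0.293 and 0.741). Also named after their values were seen, the clock gene Per1 did not pass in either comparison (0.31 and -0.13), and Klf9, a Krüppel-like factor, rose by 0.49 (edgeR adjusted p = 0.000398) and then fell by 0.51 (edgeR adjusted p = 3.04e-06).

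Of 15 chaperones of the receptor, 9 were higher and 2 lower in TPA versus vehicle (median 0.23), and 3 were higher and 9 lower in TPA+RGRN-305 versus TPA (median -0.28). The shares called were 73.3% and 80% of this list, against 66.0% and 65.6% of all genes. Dnajb1, an HSP40 co-chaperone, averaged 146 ± 21.1 CPM in TPA+RGRN-305 mice, 398 ± 33.1 CPM in TPA mice, 118 ± 14.1 CPM in RGRN-305 mice and 94.8 ± 7.29 CPM in vehicle mice. Hsp90aa1, the inducible HSP90, averaged 65.5 ± 7.90 CPM in TPA+RGRN-305 mice, 131 ± 11.4 CPM in TPA mice, 61.2 ± 11.7 CPM in RGRN-305 mice and 49.5 ± 2.52 CPM in vehicle mice. Both rose in TPA versus vehicle (2.07 and 1.40) and were lower in TPA+RGRN-305 versus TPA (-1.45 and -0.996), as were Hspa8 (1.35, then -0.83) and Dnaja1 (1.22, then -0.67), with edgeR adjusted p of at most 3.27e-11. Fkbp4, the co-chaperone that opposes FKBP51 on the receptor and was named after its values were seen, went the other way, at -0.38 in TPA versus vehicle (edgeR adjusted p = 1.83e-06) and 0.37 in TPA+RGRN-305 versus TPA (edgeR adjusted p = 1.99e-08). With library totals alone, 7 of the 15 chaperones were lower in TPA versus vehicle and 7 higher in TPA+RGRN-305 versus TPA.

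Of 17 steroid receptors, coregulators and corticosteroid enzymes, 6 were higher and 5 lower in TPA versus vehicle (median 0.12), and 4 were higher and 7 lower in TPA+RGRN-305 versus TPA (median -0.13), or 8 higher and 2 lower in the second comparison with library totals alone. The share called was 64.7% in each, near the 66.0% and 65.6% of all genes. The mineralocorticoid receptor Nr3c2, named after its values were seen, did not pass in either comparison (-0.13 with an edgeR adjusted p of 0.302, and -0.03 with 0.762). The corepressor Nrip1 (1.12, then -0.90) and the Mediator subunit Med1 (0.63, then -0.47) rose with TPA and were lower with RGRN-305, while Srd5a1, a steroid reductase, did the opposite (-0.51, then 0.23), with edgeR adjusted p of at most 0.0037 for each.

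Of 6 other SLC30 exporters, 4 were higher and 0 lower in TPA versus vehicle (median 0.34), and 0 were higher and 4 lower in TPA+RGRN-305 versus TPA (median -0.26), while with library totals alone 2 were higher and 2 lower in TPA versus vehicle, and 1 was higher and 2 lower in TPA+RGRN-305 versus TPA. The share called was 66.7% in each comparison, near the 66.0% and 65.6% of all genes. Slc30a7 (0.56, then -0.49), Slc30a4 (0.54, then -0.42), Slc30a9 (0.39, then -0.30) and Slc30a5 (0.29, then -0.22) were these 4, with edgeR adjusted p of at most 5.85e-05. Of 11 other SLC39 importers, 3 were higher and 4 lower in TPA versus vehicle (median 0.06), and 3 were higher and 4 lower in TPA+RGRN-305 versus TPA (median -0.11), where 6 were higher with library totals alone. Here 63.6% were called in each comparison, near the share of all genes. Slc39a8, which encodes ZIP8, the closest relative of ZIP14, averaged 8.92 ± 2.29 CPM in TPA+RGRN-305 mice, 22.5 ± 4.89 CPM in TPA mice, 6.76 ± 0.875 CPM in RGRN-305 mice and 4.63 ± 0.910 CPM in vehicle mice. It rose by 2.28 in TPA versus vehicle (SE 0.19, edgeR adjusted p = 5.57e-12) and was lower by 1.34 in TPA+RGRN-305 versus TPA (-1.34, SE 0.13, edgeR adjusted p = 6.23e-11). Slc39a2 (2.03, then -1.52) and Slc39a1 (0.47, then -0.44) had the same order, and Slc39a3 the reverse (-0.82, then 0.60), with edgeR adjusted p of at most 1.62e-06.

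Of 8 genes in a list of other metallothioneins, metal regulators and stress enzymes, 4 were higher and 2 lower in TPA versus vehicle (median 0.39), and 3 were higher and 4 lower in TPA+RGRN-305 versus TPA (median -0.23), which is 75% and 87.5% of the list, against 66.0% and 65.6% of all genes. The list holds Mt3, Mt4, Mtf1, Slc40a1 and the stress enzymes Gclc, Hmox1, Nqo1 and Txnrd1. Those higher in TPA versus vehicle were Mtf1, Gclc, Hmox1 and Txnrd1, and those lower were Slc40a1 and Nqo1. Mtf1, which encodes the zinc-sensing factor of the metal response elements, averaged 37.2 ± 3.12 CPM in TPA+RGRN-305 mice, 65.1 ± 6.60 CPM in TPA mice, 32.2 ± 3.20 CPM in RGRN-305 mice and 29.5 ± 1.37 CPM in vehicle mice. It rose by 1.14 in TPA versus vehicle (SE 0.08, edgeR adjusted p = 7.87e-14) and was lower by 0.81 in TPA+RGRN-305 versus TPA (-0.81, SE 0.06, edgeR adjusted p = 8.94e-14). The stress enzymes Hmox1 (1.51, then -1.30) and Txnrd1 (1.24, then -0.996) had the same order and the iron exporter Slc40a1 the reverse (-0.94, then 0.47), with edgeR adjusted p of at most 5.73e-06. Of the remaining metallothioneins, both named after their values were seen, Mt3 averaged 1.02 to 1.44 CPM in the groups and did not pass, and Mt4, the metallothionein of stratified epithelia, averaged 64.2 ± 13.2 CPM in TPA+RGRN-305 mice, 47.9 ± 11.4 CPM in TPA mice, 73.4 ± 24.8 CPM in RGRN-305 mice and 61.8 ± 13.8 CPM in vehicle mice. Mt4 did not share the rise of Mt1 and Mt2 (-0.37, edgeR adjusted p = 0.083) and was higher by 0.42 in TPA+RGRN-305 versus TPA (edgeR adjusted p = 0.0112).

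**Figure D4:**
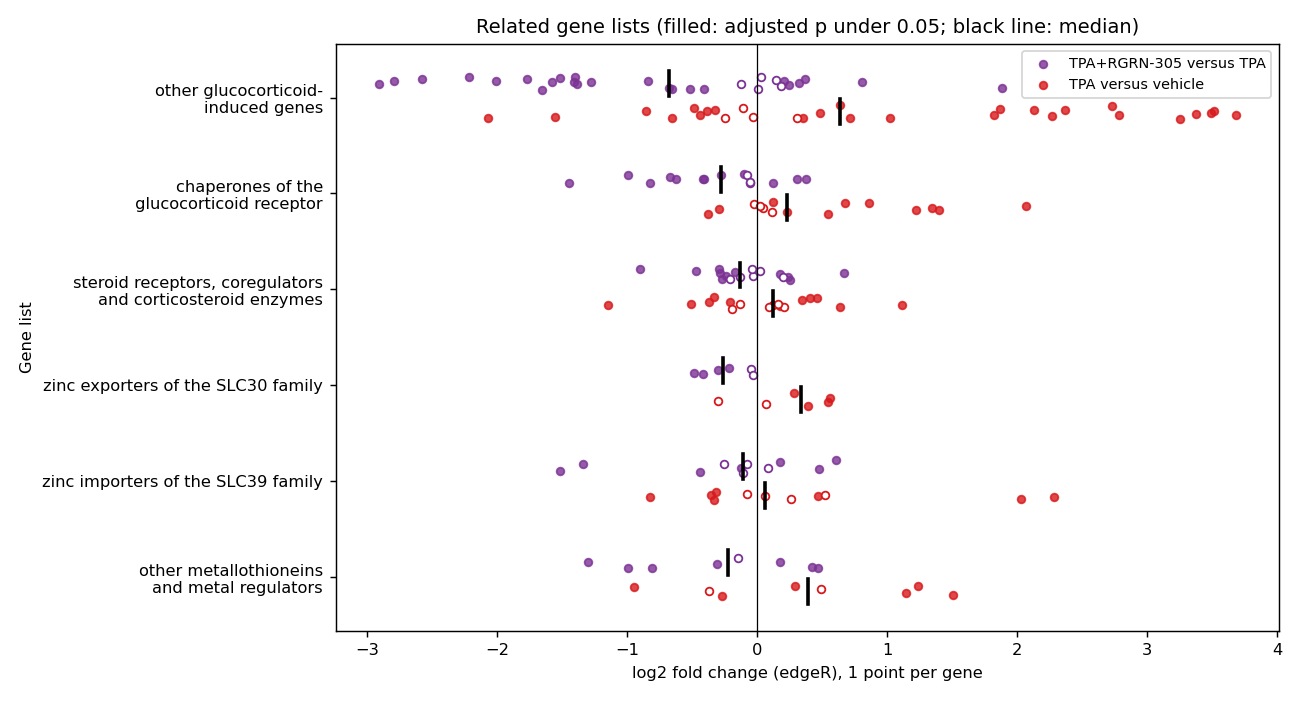
Log2 fold changes (x axis, edgeR) of the genes of 6 related lists (rows), 1 point per gene, in TPA+RGRN-305 versus TPA and in TPA versus vehicle, filled for an adjusted p under 0.05, with a black line at the median. The glucocorticoid-induced list spreads from -2.07 to 3.68 in TPA versus vehicle, with medians of 0.64 there and -0.67 in TPA+RGRN-305 versus TPA.

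The protein-coding genes most like each member were found by Pearson's r of log2 CPM over the 28 libraries, which share the treatment groups, so these values describe likeness across groups. Nr3c1 was most like Cysltr1, Gab1 and Pgap1 (r from 0.971 to 0.972). Tsc22d3 was most like Glul (0.930), Txnip (0.915) and Hbp1 (0.893), and Zbtb16 most like Klf15 (0.873), Jade2 (0.835) and Glul (0.811), of which Glul, Txnip and Klf15 are also glucocorticoid-induced genes of the list. Mt1 and Mt2 shared Tpm3 (0.992 and 0.995) and Ccdc71l (0.991 and 0.993) as their nearest genes, with Tubb2a for Mt1 and Pde12 for Mt2. Slc39a14 was most like Lilrb4b, a receptor gene of myeloid cells (0.992), Ndrg1 (0.990) and the NF-kappaB subunit gene Nfkb1 (0.990). Genes that hardly changed had weaker partners, namely Scara5 for Hsd11b1 (0.798), Gclc for Fkbp5 (0.781), Cdc40 for Sgk1 (0.753) and Gm11992 for Slc30a1 (0.832).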

How the data were processed

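Counts of 28 ear skin libraries were analysed, in groups taken from the sample labels. The authors deposited whole-number counts per gene, which were not normalized. Per the study's methods, reads of a strand-specific kit were aligned to GRCm39 and uniquely aligned, unambiguous reads were counted with Subread version 2.10.3; the strand setting is not given in the sources used here. Uniquely aligned reads can lower counts of genes with near-identical copies. Totals ran from 16751780 to 24716640. The lowest count of the 10 genes in any library was 118, for Hsd11b1, so relative counting error is largest for that gene. Of the columns, 0 could not be tied to a sample, and 665 unmatched genes held 0.0567% of counts.

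Genes passed filterByExpr of edgeR (minimum count of 10, minimum total of 15). Differences were tested by quasi-likelihood in edgeR (version 4.0.16, under R version 4.3.3) on the 28 libraries together, with TMM and 1 coefficient for each group. Adjustment was by Benjamini-Hochberg. The 10 genes and the 6 lists were chosen with earlier results of these data known. In each list, the 4 genes that passed in TPA versus vehicle with the greatest absolute log2 fold change were named, and for each member the 3 most similar protein-coding genes; other names are marked in the text. For 1 gene that this rule picks, no result is reported here. Log2 CPM used a prior count of 2. Permutation tests of correlations used 100000 resamples in SciPy version 1.17.1. The p-values measure the spread between mice.

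As alternatives, scaling was changed (RLE, or library totals alone), the filter was dropped, DESeq2 version 1.42.0 was run, a replicate block was added, the fit was limited to the groups compared, and single mice of the groups of 4, the low-Xist library or 4 libraries high in hair keratins were left out. Leaving out the 7 libraries over 10 CPM of hair keratins was chosen after seeing the data. The edgeR steps were run on simulated counts in which few genes changed, up and down alike. The effect of scaling where most genes change, as here, was not covered by them.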

Additional observations from a re-analysis of the deposited data

Results flagged for a closer look

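Mice were checked for standing apart from the other mice of their group in the level of each of the 10 genes. In 2 of 40 gene and group pairs a mouse did so, and chance gives about 1 in 20. Tsc22d3 was 460.4 CPM in RGRN-305 replicate 3, above 351 CPM in the next mouse of that group. Zbtb16 was 104.5 CPM in TPA+RGRN-305 replicate 8, above 52.3 CPM in the next mouse. Without RGRN-305 replicate 3, Zbtb16 in RGRN-305 versus vehicle was -0.17, against 0.18 with it, and neither passed the test.

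The effect of TPA differed between mice with and without RGRN-305 for 4 genes of the set, by the interaction term of edgeR. Of all genes tested, 50.8% passed the same test, so passing it does not set these genes apart. The interaction was 0.53 for Nr3c1, -2.49 for Mt1, -2.74 for Mt2 and -1.60 for Slc39a14. Each value is the change under TPA with RGRN-305 minus the change without it. The summed neutrophil markers moved with the last 3 genes, at 10.6 to 49.5 CPM in TPA+RGRN-305 mice, 207 to 331 CPM in TPA mice, 6.28 to 14.2 CPM in RGRN-305 mice and 6.18 to 12.8 CPM in vehicle mice, and their part in these differences was not tested.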

How the results depend on the processing

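Of the 50 differences of the 10 genes (5 comparisons), 25 kept direction and side of the threshold under all alternatives tried. Of the 24 that passed the test, 18 did so under all alternatives, including every call of Nr3c1, Mt1 and Mt2, and 1 reversed in direction (Fkbp5 in TPA+RGRN-305 versus TPA, with library totals alone). The cause of the changes below was not tested. With library totals alone, the median gene shifted by -0.29 (TPA versus vehicle) and 0.26 (TPA+RGRN-305 versus TPA), and the share of called genes that were higher was 28.2% against 47.9% with TMM in TPA versus vehicle and 74.2% against 50.3% in TPA+RGRN-305 versus TPA. With that scaling, values turned in TPA versus vehicle for Fkbp5 (-0.018) and Sgk1 (-0.094), in TPA+RGRN-305 versus TPA for Hsd11b1 (0.26), Fkbp5 (0.0073) and Sgk1 (0.18), in TPA+RGRN-305 versus vehicle for Fkbp5 (-0.010) and Slc30a1 (-0.0068), and in the interaction for Sgk1 (0.18). List counts then became, in TPA versus vehicle, 7 chaperones lower, 3 steroid receptor genes higher, 2 SLC30 genes higher and 2 lower, and in TPA+RGRN-305 versus TPA, 10 glucocorticoid-induced genes higher, 7 chaperones higher, 8 steroid receptor genes higher and 2 lower, 1 SLC30 gene higher and 2 lower, and 6 SLC39 genes higher. Hsd11b1 in TPA+RGRN-305 versus TPA, at -0.00022, turned to 0.0019 with RLE, 0.034 without the filter, 0.015 with only the groups compared, 0.014 without the low-Xist library, 0.026 without the 4 and 0.13 without the 7 hair keratin libraries, and 0.0019 with DESeq2. Nr3c1 in RGRN-305 versus vehicle, at -0.0026, turned to 0.014 with RLE, 0.012 without the filter, 0.024 without the 4 and 0.056 without the 7 hair keratin libraries, and 0.015 with DESeq2. Without the 7 libraries, RGRN-305 versus vehicle also turned for Fkbp5 (-0.19), Sgk1 (-0.0033) and Zbtb16 (-0.48) and the interaction for Fkbp5 (0.023), that of Zbtb16 passed (1.01, edgeR adjusted p = 0.00905), and 12 genes passed in RGRN-305 versus vehicle, where DESeq2 called 19 and edgeR 0.

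Leaving out single vehicle or RGRN-305 mice turned values that had not passed. The ranges were -0.0048 to 0.00020 for Hsd11b1 in TPA+RGRN-305 versus TPA; in RGRN-305 versus vehicle -0.085 to 0.037 for Nr3c1, -0.20 to 0.012 for Hsd11b1, -0.064 to 0.19 for Fkbp5, -0.10 to 0.18 for Sgk1 and -0.17 to 0.37 for Zbtb16; in TPA+RGRN-305 versus vehicle -0.083 to 0.10 for Fkbp5 and -0.019 to 0.26 for Sgk1; and in the interaction -0.012 to 0.20 for Hsd11b1 and -0.25 to 0.026 for Sgk1. Deviations of same-numbered mice had correlations between -0.129 and 0.204, and over 0.1 in 2 of 10 pairs of TPA+RGRN-305 and TPA mice. Mice of different numbers were not compared, so whether replicate numbers pair the mice cannot be decided from these values. With a replicate block, 2599 genes passed in TPA+RGRN-305 versus vehicle against 4170 without it, Fkbp5 turned to -0.12 there, and the calls of Slc30a1 in TPA versus vehicle (-0.11), Zbtb16 in TPA+RGRN-305 versus TPA (0.33) and Slc39a14 in TPA+RGRN-305 versus vehicle (0.25) were not made. With 4 mice in the vehicle and RGRN-305 groups, differences under the spread of variable genes cannot be seen.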

Other observations

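Among the pairs within groups, those of Nr3c1 with Mt1 and Mt2 had negative correlations that did not pass the adjustment. They were picked after the values were seen, and Mt1 and Mt2 follow each other closely, so they are not separate evidence. Between Nr3c1 and Mt2, Pearson's r was -0.83 in the 10 TPA+RGRN-305 mice (rho -0.77, permutation p = 0.00387 for r and 0.0125 for rho) and -0.81 in the 10 TPA mice (rho -0.72, permutation p = 0.00461 for r and 0.0236 for rho). Adjusted over the 90 pairs tested, both had p = 0.104 for r, and p = 0.225 and 0.303 for rho, so neither passed. Without the 2 mice farthest from the median of Nr3c1, r was -0.77 in TPA+RGRN-305 mice and -0.74 in TPA mice. Between Nr3c1 and Mt1, r was -0.79 in TPA+RGRN-305 mice (rho -0.81, permutation p = 0.00701 for r and 0.0069 for rho, adjusted p = 0.126 and 0.203) and -0.67 in TPA mice (rho -0.59, permutation p = 0.0346 for r and 0.0813 for rho, adjusted p = 0.311 and 0.43), and without the 2 farthest mice -0.77 and -0.63. The values of 1 library share 1 scaling factor, and the 2 experiments of the study could not be separated within a group.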
